A study of Mus musculus with 16 samples.

Results

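The miR-344 family is a group of mouse microRNAs cut from hairpins that lie side by side on chromosome 7. Its members were taken as every listed miRNA name that starts with miR-344, in any letter, copy or arm. This gave 26 of 2510 listed names, which became 20 of 2274 after names of copies of one mature sequence were merged. The family was selected on the comparison of knockout with control cells, in which it was high, so that comparison is given below as a description without a test.

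Small RNA was sequenced from C2C12, mouse muscle precursor cells that stop dividing and form myotubes in low serum; the growth protocol names the cells PAX7 NEG. Control cells are wild-type populations 1 and 2. The triple knockout (tKO) cells are clones 1 and 2, in which the genes of miR-1a-1, miR-1a-2 and miR-206 were knocked out, so each tKO line descends from a single cell while the controls are populations. Both were collected in growth medium with 20% fetal bovine serum (GM) and after 3 days in 2% horse serum (DM3), with 2 biological replicates per line and medium, which made 4 groups of 4 libraries. The 4 libraries of a group come from 2 lines, so p-values measure the spread between libraries and not between independent clones.

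MicroRNAs are made from hairpins whose 5' and 3' arms each give a short strand. The strand loaded into Argonaute pairs with target messages mainly through its seed, bases 2 to 8 from the 5' end, so strands with one seed share most predicted targets, and a shift of the 5' end by a few bases changes the seed. Bases can be added to the 3' end after processing, which are called non-templated because the hairpin does not encode them. The miR-344 hairpins were first cloned from neurons and lie between Snrpn and Ndn, imprinted genes of the region that corresponds to the human Prader-Willi locus.

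The mature sequences below are those of the members on which the results turn (RefSeq, GRCm38.p6, written 5' to 3' with the seed in capitals). They are shown because the family is not one seed but several. By name, 16 of the 20 members matched RefSeq.
miR-344d-3p: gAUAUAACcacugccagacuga
miR-344e-3p: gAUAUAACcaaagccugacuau
miR-344b-3p: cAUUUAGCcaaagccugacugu
miR-344-3p: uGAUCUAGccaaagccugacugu
miR-344c-3p: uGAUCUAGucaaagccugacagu
miR-344d-3-5p: aGUCAGGCuagugguuauacucc
miR-344g-3p: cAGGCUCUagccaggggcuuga
The 8 annotated 3' arm sequences hold 6 seeds. miR-344d-3p and miR-344e-3p share AUAUAAC, which outside the family only miR-410-3p holds among the 1679 RefSeq mature names. miR-344-3p and miR-344c-3p share GAUCUAG, and miR-344b-3p has AUUUAGC alone. miR-344b-3p differs from miR-344-3p at its 5' end, where the seed lies, since the other 18 bases form a run that both contain, whereas the longest run shared by miR-344d-3p and miR-344-3p is 5 bases.

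All 13 annotated Mir344 genes lie on the minus strand of chromosome 7 between positions 61683124 and 62085310 of GRCm38, a span of 402.2 kb. From low to high coordinate the order is Mir344d-1, d-2, d-3, e, h-1, h-2, b, c, Mir344, Mir344-2, g, f and i. In the GENCODE annotation, 7 of them, Mir344d-3 to Mir344, lie in introns of the long noncoding RNA gene A230057D06Rik on the same strand. Mir344-2 lies in an intron of A330076H08Rik, a noncoding transcript, and Mir344g overlaps its exon. The other 4, Mir344d-1, d-2, f and i, overlap no such gene. Within 2 Mb the annotation holds 7 further miRNA genes, all with placeholder names and none with a Mir symbol. Of the imprinted genes on either side, Ndn lies 261.3 kb beyond the high end and Snrpn 1543 kb beyond the low end.

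Several of these hairpins give one mature sequence, which decides what a name can say. The miR-344d-3p sequence stands in 5 annotated hairpins (3 named Mir344d and 2 placeholders), and miR-344-3p stands in both Mir344 and Mir344-2. Of 13583 family reads of at least 16 nt without a mismatch, 16.4% matched a single hairpin. The 5' arm told the Mir344d copies apart. Mir344d-3 alone held 386 reads of its 5' arm, against 4 for Mir344d-1 and 2 for Mir344d-2. The hairpin of Mir344d-3 (chr7:61726249-61726328, minus strand, GRCm38.p6) is printed to show both strands in capitals, the 5' arm first.
Mir344d-3: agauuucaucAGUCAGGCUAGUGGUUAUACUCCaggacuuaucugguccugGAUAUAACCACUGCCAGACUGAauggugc

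Levels are expected counts scaled to 1000000 listed miRNA reads of a library (CPM). The annotated strands are 20 to 26 nt long, and no length scaling was applied. Over the 16 libraries the family held 15221 reads. miR-344d-3p made up 58.1% of them, miR-344-3p 21.8%, miR-344b-3p 10.6%, miR-344d-3-5p 4.01%, miR-344g-3p 1.59% and miR-344c-3p 1.06%. These 6 names passed the filter on low counts and carried 97.2% of the family's reads. The other 14 names held 9 to 70 reads each over all libraries, 422 together, and did not exceed a mean of 4.96 CPM in any group. In 13 of those 14, most of the reads carried a mismatch to the miRNA they were listed under. A filter on low counts can be passed through the high group alone, so the 6 names are not a sample of all members.

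Library totals ran from 112792 to 6543570 reads, so 3 reads stand for 0.458 to 26.6 CPM. The smallest library, of tKO DM3 clone 1 replicate 1, also had the lowest share of reads that match a hairpin at a mature start, 45.1%, against 65.9% to 88.6% in the others. The deleted miR-206-3p, a muscle miRNA, ran from 837 to 57400 CPM in control libraries and from 0.808 to 70.9 CPM in tKO libraries, and miR-1a-3p from 3.67 to 165 and 0 to 7.36 CPM. miR-133a-3p, a muscle miRNA that was not deleted, averaged 8.87 CPM (control) and 3.81 CPM (tKO) in GM, then 1590 and 345 CPM in DM3. Leaving out the deleted miR-206-3p and miR-1a-3p, the other 5 myotube markers summed to 136 to 236 CPM (control) and 132 to 230 CPM (tKO) in GM, and to 1930 to 3280 and 273 to 1340 CPM in DM3. This level moved with the medium and, in DM3, with genotype, and its part in the results below was not tested. In bulk RNA fewer cells of a type and less RNA per cell cannot be told apart. The 4 neuron markers summed to 110 to 163 CPM (control) and 6.46 to 35.5 CPM (tKO) in GM, which did not overlap. In DM3 they summed to 60.5 to 117 and 0 to 97.9 CPM. The gap in GM lay in miR-9-5p, with means of 118 CPM (control) and 8.76 CPM (tKO). There miR-9-3p averaged 12.7 and 12.2 CPM, and miR-137-3p 0.243 and 0.547 CPM. In DM3 miR-9-5p averaged 77.5 and 11.9 CPM, and miR-9-3p 14.3 and 24.6 CPM. miR-124-3p was at 0 in all 16 libraries. The 4 epithelium markers summed to 9.76 to 14.1 CPM (control) and 16.2 to 34.2 CPM (tKO) in GM, which did not overlap, and to 2.51 to 8.64 and 8.14 to 28.8 CPM in DM3, and the 4 blood cell markers to at most 4.80 CPM. The part of these levels in the results was not tested either.

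The summed family averaged 101 ± 12.5 CPM (SD, n = 4) for control and 494 ± 137 for tKO in GM, and 215 ± 27.0 and 714 ± 124 in DM3. miR-344d-3p was the most read member in all groups but control DM3, where it was second to miR-344-3p. In control GM the 2 replicates of population 1 held 56.6 and 55.3 CPM and those of population 2 held 48.0 and 42.9 CPM. In tKO GM clone 1 held 200 and 270 CPM and clone 2 held 476 and 434 CPM. Every tKO library lay above every control library, and clone 2 lay above clone 1. In control DM3 the values were 72.6, 73.4, 95.5 and 66.5 CPM, and in tKO DM3 they were 248 and 410 CPM for clone 1 and 436 and 429 CPM for clone 2. The lowest of these, 248 CPM, rests on 28 reads of the smallest library and has a Wilson 95% interval of 172 to 359 CPM, which covers counting error only. The log2 difference of tKO over control was 2.70 (SE 0.39) in GM and 2.36 (SE 0.39) in DM3, a description of the values that chose the family.

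miR-344b-3p, whose seed differs from that of every other annotated member, was also separate by genotype, at lower levels. In GM it held 1.95, 12.5, 8.43 and 11 CPM in control, and 54.9, 27.1, 50.0 and 65.4 CPM in tKO. In DM3 it held 12.1, 8.64, 5.02 and 17.4 CPM in control, and 35.5, 106, 74.6 and 87.8 CPM in tKO. In control its libraries held 1 to 72 reads, so single values there are imprecise. The lowest tKO library, 27.1 CPM, lay above the highest control library, 17.4 CPM. The log2 difference of tKO over control was 2.36 (SE 0.52) in GM and 2.76 (SE 0.55) in DM3.

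miR-344d-3-5p, the strand opposite miR-344d-3p in Mir344d-3, averaged 4.43 ± 2.17 CPM (SD, n = 4) for control and 18.3 ± 12.2 for tKO in GM. The DM3 means were 4.77 ± 4.23 and 18.2 ± 16.7 CPM. The groups overlapped in both media, and the smallest library of each genotype in DM3 held no read of it, where the Wilson 95% upper limits are 15.5 CPM in control and 34.1 CPM in tKO. Of its reads, 36.8% carried a mismatch and 34.4% were shorter than 16 nt, against at most 12.8% and 8.68% in the other tested members.

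miR-344-3p, the founding name of the family, had a smaller difference between genotypes. It held 17.6 and 35.2 CPM in control GM population 1 and 25.8 and 31.8 CPM in population 2. The tKO GM libraries held 77.5 and 57.2 CPM for clone 1 and 52.7 and 70.1 CPM for clone 2. These did not overlap. In DM3 it held 117, 69.1, 87.9 and 120 CPM in control and 142, 240, 140 and 173 CPM in tKO, and here the groups were separate as CPM but overlapped after TMM scaling. The log2 difference of tKO over control was 1.12 (SE 0.38) in GM and 0.84 (SE 0.38) in DM3.

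The remaining tested members were rare. miR-344c-3p, which shares the seed of miR-344-3p, had means of 0.942 (control) and 1.91 (tKO) CPM in GM, and of 4.49 and 14.4 CPM in DM3. For miR-344g-3p the means were 0.733 and 3.73 CPM in GM, and 5.27 and 28.2 CPM in DM3. Both overlapped between genotypes in GM and not in DM3. The highest values of both, 26.6 and 62.1 CPM, came from the smallest library with 3 and 7 reads. Over the 6 names the median log2 difference of tKO over control was 1.76 in GM and 1.81 in DM3, against 0.11 and 0.09 over all 807 names tested. All tKO libraries lay above all control libraries for 3 of 6 members in GM and 4 of 6 in DM3 after TMM scaling, where this held for 3.47% and 2.11% of all names; since the family was chosen on this comparison, nothing is read from these counts.

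**Figure D1:**
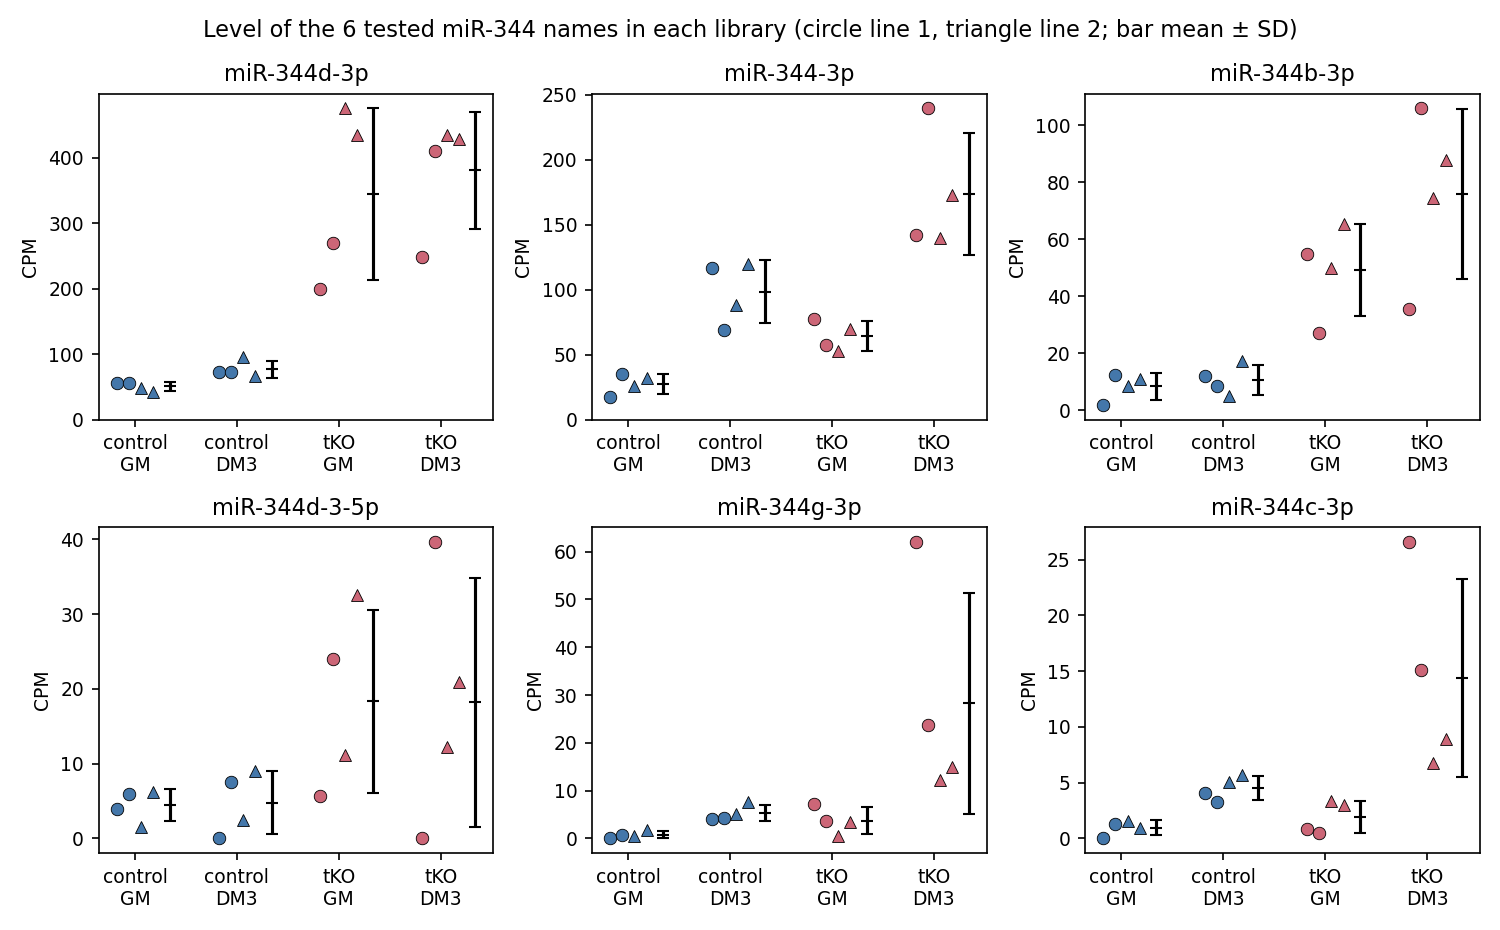
Level of the 6 tested miR-344 names in CPM (vertical axis, a separate linear scale per panel) in each library, by group. Circles are line 1, triangles are line 2, blue is control, red is tKO, and the black bar is the mean ± SD of 4 libraries. Within each medium the tKO libraries of miR-344d-3p, miR-344b-3p and miR-344-3p lie above the control libraries. In both genotypes miR-344-3p, miR-344g-3p and miR-344c-3p lie higher in DM3 than in GM, as does miR-344d-3p in control.

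The response to differentiation was not used to choose the family and was tested in both genotypes. miR-344-3p was called higher in DM3 in control and in tKO cells, and miR-344d-3p, miR-344b-3p and miR-344d-3-5p passed in neither. With a library left out, the miR-344-3p call held in 14 of 16 fits for control and in 2 of 16 for tKO. miR-344g-3p and miR-344c-3p were called higher in tKO cells. For them the group tested as higher, tKO DM3, is also the one that takes them past the filter on low counts, so no rise is concluded. Whether these sets of members respond differently was not tested as such. miR-344g-3p was also called in control, but only in a fit that holds the tKO libraries. Each name was tested with edgeR (quasi-likelihood), its p adjusted by Benjamini-Hochberg across 807 names, and called under 0.05. In control cells 2 of 6 tested members were called higher, where 15.9% of all names were, and none lower. In a fit of the control groups alone 3 members passed the filter on low counts and 1 was called, since miR-344g-3p, miR-344c-3p and miR-344d-3-5p pass it only with the tKO libraries. In tKO cells 3 of 6 were called higher, where 11.4% of all names were, and none lower. Of these, miR-344g-3p and miR-344c-3p are highest in tKO DM3, with means of 28.2 and 14.4 CPM against 5.27 CPM or less in every other group, so the group that takes them past the filter is the one tested as higher, and the count is no support for a rise of the family. After TMM scaling every DM3 library lay above every GM library for 3 members in control (16.9% of all names) and 3 in tKO (9.42%). These counts describe 6 names.

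In control cells miR-344-3p went from 27.6 ± 7.72 CPM in GM to 98.5 ± 24.4 CPM in DM3 (SD, n = 4 each), and the lowest DM3 library lay above the highest GM library. The edgeR log2 change was 1.42 (SE 0.38, Benjamini-Hochberg adjusted p = 0.00863). In tKO cells it went from 64.4 ± 11.5 to 174 ± 46.7 CPM, again without overlap, with a log2 change of 1.14 (SE 0.38, adjusted p = 0.0393). The call in control was lost without control GM population 1 replicate 1 (adjusted p = 0.0555) and without control DM3 population 2 replicate 2 (0.0683). The call in tKO held in 2 of the 16 fits that left out a library, with log2 changes of 0.98 to 1.32 and adjusted p up to 0.139. Both calls were lost with no filter on low counts (adjusted p = 0.141 in control and 0.247 in tKO). They were also lost with replicate 1 alone (0.101 and 0.489) and with replicate 2 alone (0.118 and 0.089). The log2 changes in these 3 settings were 1.17, 1.55 and 1.31 in control, and 1.05, 0.63 and 1.61 in tKO. With only the tKO groups in the fit the tKO call was lost too, at 1.19 (adjusted p = 0.0936). With reads that match a hairpin at the mature start, a setting chosen after the data were seen, the changes were 1.95 (adjusted p = 0.000106) and 1.35 (0.00229).

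miR-344g-3p was at 0 to 11 reads in the control GM libraries and at 1 to 23 in control DM3. Its GM levels there were 0, 0.725, 0.527 and 1.68 CPM, and its DM3 levels 4.03, 4.32, 5.02 and 7.69 CPM. The groups did not overlap, and the edgeR log2 change was 2.15 (SE 0.71, Benjamini-Hochberg adjusted p = 0.0282). In tKO cells the levels were 7.27, 3.57, 0.555 and 3.50 CPM in GM and 62.1, 23.7, 12.2 and 15.0 CPM in DM3, with a log2 change of 2.35 (SE 0.61, adjusted p = 0.0111). In a fit of the control groups alone miR-344g-3p did not pass the filter on low counts, so its control test exists only because the tKO libraries, in which the family was chosen as high, were in the fit. The control change ran from 1.95 to 3.54 over 10 alternatives, all with tKO libraries in the fit, and 9 of them passed. The lowest, 1.95, was with no filter, where the call was lost (adjusted p = 0.0608). With a library left out the control change ran from 1.59 to 2.80. The control call was also lost without any one of 3 control libraries: GM population 2 replicate 1 (adjusted p = 0.0645), GM population 1 replicate 2 (0.0934) or DM3 population 2 replicate 2 (0.192). The tKO call held in all 16 fits with a library left out, and was lost with only the tKO groups in the fit (adjusted p = 0.0514). Its stability is not read as support for a rise, since tKO DM3 also takes miR-344g-3p past the filter.

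miR-344c-3p in tKO cells went from 0.808, 0.510, 3.33 and 3.00 CPM in GM to 26.6, 15.1, 6.79 and 8.95 CPM in DM3, clone 1 before clone 2. No DM3 library lay below a GM library, and the edgeR log2 change was 2.21 (SE 0.57, Benjamini-Hochberg adjusted p = 0.0111). This call also held in all 16 fits with a library left out, and was lost with replicate 2 alone (adjusted p = 0.0588). Because tKO DM3 also takes miR-344c-3p past the filter on low counts, neither the call nor its stability is read as support for a rise. In control cells, where this name too is tested only because the tKO libraries are in the fit, the log2 change was 1.72 (SE 0.66, adjusted p = 0.0596). It passed under 5 of 12 alternatives and in 1 of 16 fits with a library left out. Of the reads listed under miR-344-3p with a mismatch, 51 were a sequence that matches the Mir344c hairpin exactly, against 161 reads listed under miR-344c-3p.

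For miR-344d-3p the log2 change with differentiation was 0.23 in control (95% interval -0.51 to 0.97, edgeR with Benjamini-Hochberg adjusted p = 0.7) and -0.11 in tKO (-0.83 to 0.61, adjusted p = 0.881). For miR-344b-3p it was -0.02 (-1.08 to 1.05) and 0.38 (-0.58 to 1.34), and for miR-344d-3-5p 0.10 (-1.27 to 1.48) and 0.02 (-1.16 to 1.19). These intervals do not exclude changes of 1.5-fold or more. The value of miR-344d-3p in control depended on how reads were counted. It was 0.71 with hairpin-matched reads (edgeR adjusted p = 0.0928) and 0.87 with exact mature sequences only (0.0781), neither of which passed. As plain CPM its control DM3 libraries all lay above its GM libraries. Scaling by total counts moved the median log2 change of all names from 0.02 to 0.39 in control and from 0.01 to 0.24 in tKO, and the share of calls that were higher from 57.4% to 71.2% and from 57.9% to 71.9%. It took miR-344d-3p to 0.60 and 0.15, turning its sign in tKO, miR-344b-3p to 0.31 and 0.68, turning its sign in control, and left the called members at 1.44 to 2.68.

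**Figure D2:**
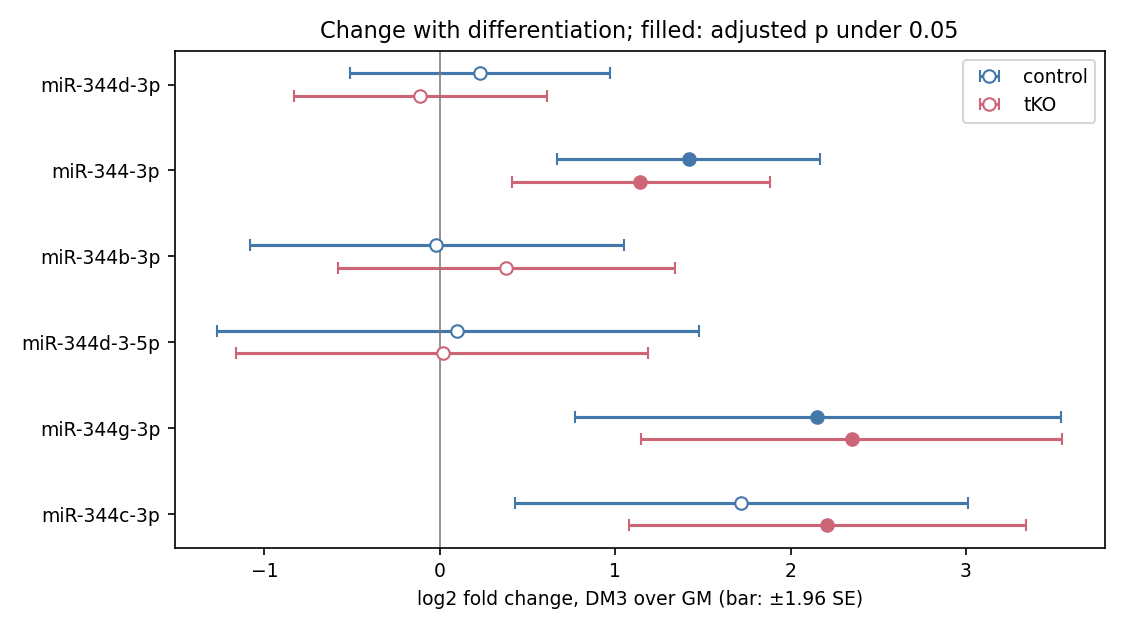
Log2 fold change of DM3 over GM from edgeR (horizontal axis) for the 6 tested members, in control (blue) and tKO (red); bars are 95% intervals and filled points have an adjusted p under 0.05. miR-344-3p, miR-344g-3p and miR-344c-3p lie between 1.14 and 2.35, and the other 3 between -0.11 and 0.38.

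A ratio of members within a library does not depend on scaling. The test of it was chosen after these values were seen. Per read of miR-344d-3p, miR-344-3p had 0.310, 0.636, 0.538 and 0.740 reads in control GM and 1.61, 0.941, 0.921 and 1.80 in control DM3. In tKO it had 0.387, 0.212, 0.111 and 0.161 reads in GM and 0.571, 0.585, 0.321 and 0.402 in DM3. The groups did not overlap in control and overlapped in tKO. The log2 ratio was higher in DM3 by 1.23 in control (two-sided exact permutation p = 0.0286, the smallest that 4 against 4 allows) and by 1.22 in tKO (p = 0.0571). Adjusted over the 4 ratios tested, both exact permutation p were 0.114 and did not pass. For miR-344b-3p over miR-344d-3p the differences were -0.11 and 0.43 (exact permutation p = 0.914 and 0.314).

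The response did not differ detectably between genotypes. In the test of the difference of the responses, 0 of 6 members and 0% of all 807 names passed (edgeR, Benjamini-Hochberg), with 37 names at an unadjusted p under 0.05. The differences, tKO minus control, ran from -0.34 for miR-344d-3p to 0.49 for miR-344c-3p on the log2 scale, with standard errors of 0.53 to 1.13 and adjusted p of 0.937 or more. The 95% intervals of 4 members hold differences of 2-fold in both directions.

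By position, Mir344d-1 to Mir344b, within 107.4 kb of the low end, gave the 3 members called in neither genotype, and Mir344c, Mir344, Mir344-2 and Mir344g, from 154.2 to 299.2 kb, gave the 3 called in at least one. This is an arrangement of 6 names noticed in the data, and it was not tested. Of the called names, miR-344c-3p and miR-344g-3p pass the filter on low counts through the high tKO DM3 group, so nothing is read from the arrangement. The intervals of the uncalled members overlap those of called ones, as for miR-344d-3-5p in control (-1.27 to 1.48) and miR-344-3p (0.67 to 2.17).

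**Figure D3:**
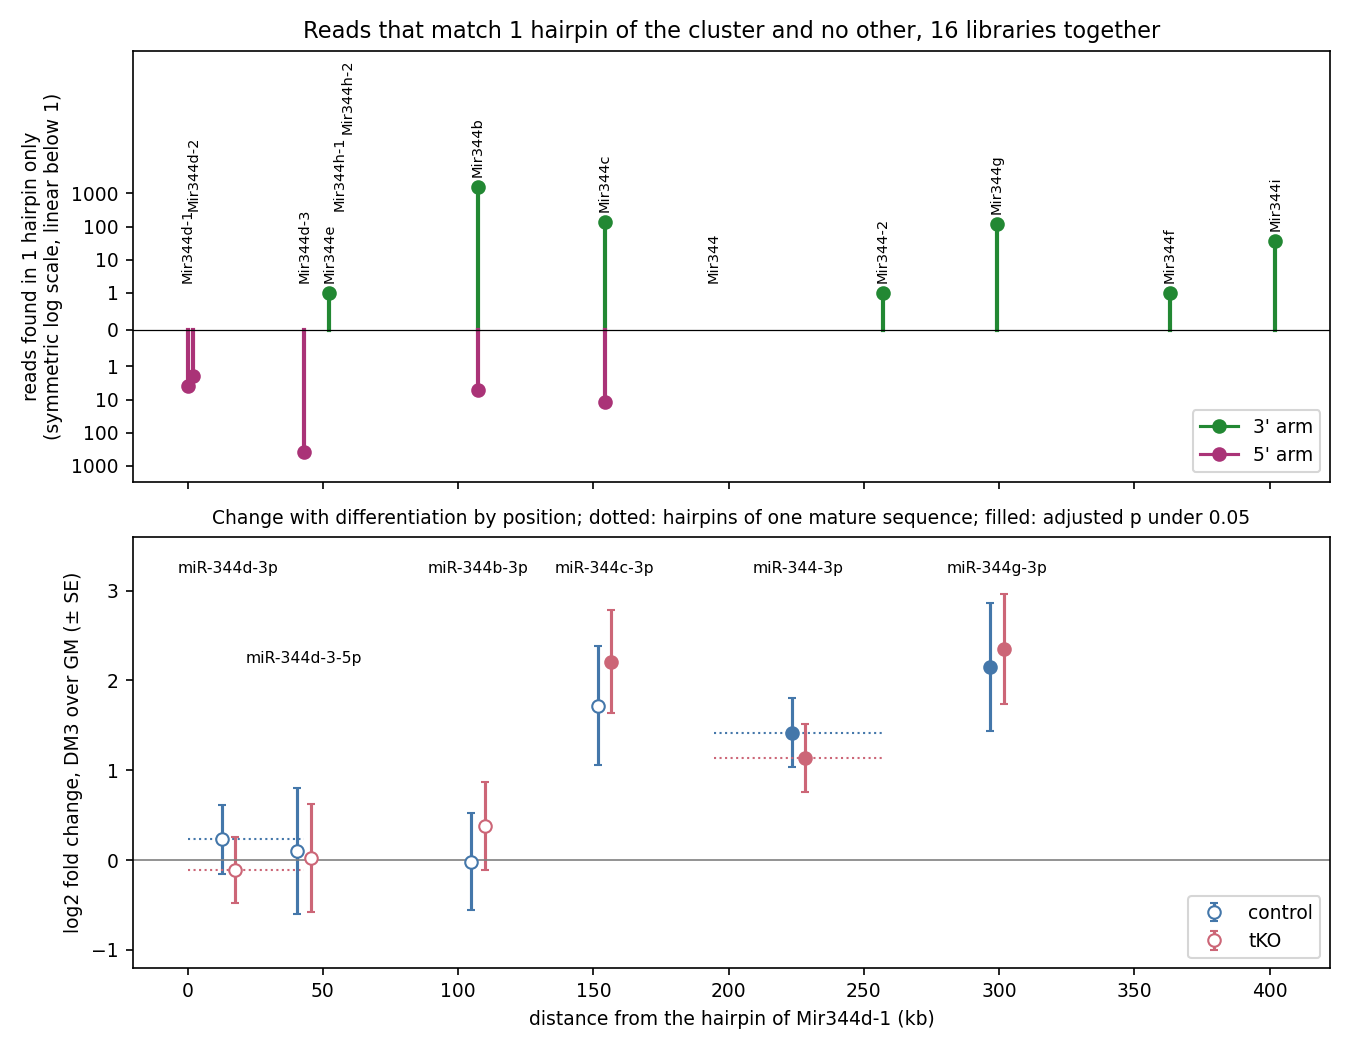
Upper plot: reads found in a single Mir344 hairpin, 3' arm above and 5' arm below 0 (symmetric log scale), against distance in kb from the hairpin of Mir344d-1. Lower plot: log2 fold change of DM3 over GM ± SE at the same distances, control in blue and tKO in red, with dotted lines across hairpins that give one mature sequence and filled points for an adjusted p under 0.05. The filled points lie from Mir344c to Mir344g. Those at Mir344c and Mir344g belong to names that pass the filter on low counts only with the tKO libraries.

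The tKO clones were compared with each other, since a clone can differ from its population by itself. Of 6 members 0 passed (edgeR, Benjamini-Hochberg), where 1.36% of all names did. The closest was miR-344d-3p, at 444 ± 21.9 CPM in clone 2 and 282 ± 90.2 CPM in clone 1 (SD, 4 libraries each over both media), which did not overlap. Its log2 difference was 0.90 (SE 0.32, edgeR adjusted p = 0.212). It passed in 1 of 16 fits with a library left out, without tKO DM3 clone 1 replicate 2 (1.21, adjusted p = 0.0338), where calls over all names went from 11 to 90. The median log2 difference of all names between the clones was -0.25. Between control populations 0 of 6 members and 0% of all names passed, with 32 names at an unadjusted p under 0.05; the members' log2 differences ran from 0.15 to 1.04. Clones and genotype cannot be told apart beyond these 2 clones.

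The form of the reads was examined next, which the choice of the family did not use. Of the hairpin-placed reads of miR-344d-3p 99.4% began at the annotated 5' end, of miR-344-3p 98.4%, of miR-344b-3p 98.1%, of miR-344c-3p 95% and of miR-344d-3-5p 92.5%. The seeds printed above are therefore those of nearly all these reads. miR-344g-3p was the exception. Of its 211 reads of at least 16 nt without a mismatch, 122 lay wholly within the annotated hairpin. Forms with 24 and 17 reads ran past the end of the hairpin, with 21 of 22 bases inside it. Of all 211 reads of miR-344g-3p, 69.2% began 7 bases downstream of the annotated start, 13.3% began 6 bases downstream, and none began at it. Its hairpin (chr7:61982289-61982359, minus strand, GRCm38.p6) is printed with the commonest read in capitals, and beside it that read with its own seed in capitals.
Mir344g: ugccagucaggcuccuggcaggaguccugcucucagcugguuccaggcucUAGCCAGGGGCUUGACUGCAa
miR-344g-3p, commonest read: uAGCCAGGggcuugacugca
Its seed is AGCCAGG and not the annotated AGGCUCU, so the level of miR-344g-3p above is that of a strand with another seed than its name implies. It is also why this name dropped out where reads had to start near the annotated end.

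At the 3' end the members carried added bases to different degrees. Of reads without a mismatch, 36.3% of miR-344d-3p, 23.2% of miR-344-3p, 26.7% of miR-344b-3p and 30.9% of miR-344c-3p had 1 or 2 non-templated bases. In miR-344d-3p 73.1% of single added bases were T (U in the RNA), whereas in miR-344-3p 50.2% were C and 34.3% T, and in miR-344b-3p 40.3% C and 44.3% T. After a read that ends 1 base short, the next hairpin base is A in miR-344d-3p and U in miR-344-3p and miR-344b-3p. A U added there counts as templated in the latter, so no difference between members is read from these shares. Among the commoner lengths, additions were most frequent on reads that end 1 base short. The 21-nt match of miR-344d-3p made up 44.2% of reads (3631) and the 22-nt match 44.4% (3647), and 67.1% of the shorter against 4.39% of the longer carried an addition. In miR-344-3p 90% of the 22-nt matches carried one, and in miR-344b-3p 74.9% of the 21-nt matches, although in miR-344b-3p more tailed reads had the full 22-nt match, which is its commonest length at 64.1%. The commonest such form of 3 members is printed with the added base in capitals.
miR-344d-3p, 21 nt and T: gatataaccactgccagactgT
miR-344-3p, 22 nt and C: tgatctagccaaagcctgactgC
miR-344b-3p, 21 nt and C: catttagccaaagcctgactgC
These made up 1814, 307 and 126 reads, each bringing the strand back to its annotated length. No molecular identifiers were used, so an addition in the cell and an error at the end of a read were not told apart here.

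**Figure D4:**
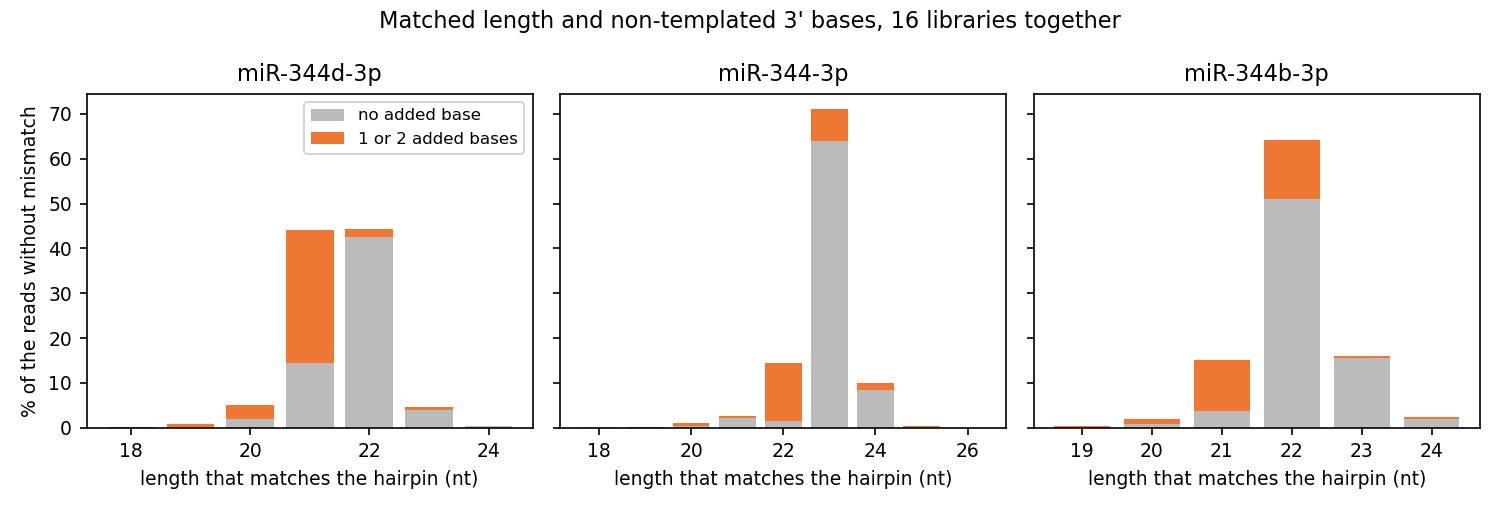
Share of reads without a mismatch (vertical axis, %) by the length that matches the hairpin (nt), for 3 members over 16 libraries together; orange is the part with 1 or 2 non-templated 3' bases. In the bar 1 nt shorter than the annotated strand, the orange part makes up 67.1% for miR-344d-3p, 90% for miR-344-3p and 74.9% for miR-344b-3p.

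The share of miR-344d-3p reads with an added base, over all its listed reads, was 38.4% ± 6.97 in control GM and 40.0% ± 10.9 in control DM3, and 37.9% ± 4.80 in tKO GM and 40.8% ± 8.69 in tKO DM3 (SD, n = 4). The share with the exact mature sequence was 43.2% ± 7.14, 43.3% ± 2.03, 41.6% ± 7.56 and 40.4% ± 4.43 in the same order. None of the 4 comparisons of DM3 with GM passed (two-sided exact permutation p = 0.686 to 0.971, adjusted p = 0.971 for each), with differences of -1.2 to 2.91 percentage points. The shares overlapped between genotypes as well.

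The names outside the family with the pattern most like miR-344d-3p over the 16 libraries were miR-129-5p (Pearson r = 0.89 of log2(TMM-scaled CPM + 1)), miR-224-5p (0.73), miR-10a-5p (0.71), miR-1947-5p (0.67) and miR-10a-3p (0.66), of 551 names with a mean of at least 10 CPM. The lowest were miR-296-5p (-0.90) and the deleted miR-206-3p (-0.87). These correlations share the genotype contrast that chose the family and are a description. Within the family r with miR-344d-3p was 0.88 for miR-344b-3p, 0.61 for miR-344d-3-5p, 0.57 for miR-344-3p, 0.45 for miR-344g-3p and 0.42 for miR-344c-3p. Over the 8 tKO libraries alone it was 0.72 for miR-344b-3p, 0.64 for miR-344d-3-5p, 0.14 for miR-344-3p, 0.07 for miR-344c-3p and -0.50 for miR-344g-3p. Over the 8 control libraries it was -0.18, 0.22, 0.39, 0.53 and 0.44 in the same order. In control 4 of the 8 libraries held 1 to 8 reads of miR-344b-3p, so no absence of a relation is read from its value. The tKO values include the smallest library, tKO DM3 clone 1 replicate 1. It held 28 reads of miR-344d-3p, 0 of miR-344d-3-5p, 7 of miR-344g-3p and 3 of miR-344c-3p. Its weight in the tKO values was not tested, so no relation is read from their signs.

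Because the family is known from neurons, a list of 18 neuron-enriched miRNAs was described beside it. Of these 12 were tested. With differentiation miR-212-3p rose and miR-7a-5p and miR-7b-5p fell in both genotypes by edgeR's adjusted p, which is 3 of 12 names where 223 (control) and 159 (tKO) of all 807 were called in either direction. The list's median log2 change was -0.38 in control and -0.03 in tKO, against 0.02 and 0.01 over all names. Its median difference of tKO over control was 0.02 in GM and 0.03 in DM3; no comparison with the miR-344 names is made here, since they were selected on that contrast. Within the list single names lay far apart in opposite directions. miR-129-5p averaged 37.4 CPM (control) and 328 CPM (tKO) in GM, and miR-9-5p 118 and 8.76 CPM in GM and 77.5 and 11.9 CPM in DM3.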

How the data were processed

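Small RNA libraries (0.5 μg total RNA, inserts of 15-50 nt, per the labels' protocols) were sequenced; cutadapt 1.15, STAR 2.5.4 and mm10 are named per the submitters' processing notes. The authors deposited unitas tables of sequences with their miRNA name and expected counts without normalization, per the file headers. Expected counts were summed per name and library, names of copies merged (236 of 2510), and rounded. edgeR 4.0.16 (R 4.3.3) tested 807 names that passed filterByExpr (smallest count 10) with TMM scaling and robust quasi-likelihood tests, all 16 libraries in 1 fit per group, or per line and medium for the clones, with Benjamini-Hochberg adjustment. The fitting code was tested on simulated data. Wilson 95% intervals and floors of 3 reads cover counting error only. The members, lists and tests were chosen with earlier results of these data known. Named were all members past the filter, and by likeness the 5 highest and 2 lowest names. Same-numbered GM and DM3 libraries of a line correlated in their deviations from the group means with r of -0.184 to 0.511 (551 names), so replicate numbers were not taken as pairs. Alternatives covered scaling, DESeq2 1.42.0, filters, kinds of read, blocks, replicates alone and each library left out. The hairpin-match and 18 to 25 nt settings and the ratio test were chosen after seeing the data.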

Additional observations from a re-analysis of the deposited data

Results flagged for a closer look

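In tKO DM3 the level of miR-344d-3p in clone 1 replicate 1 was 248 CPM, far from the other 3 libraries, which lay between 410 and 436 CPM; the gap was 0.864 of the group's range. This is the smallest library, with 28 reads of this name. It was the only 1 of 32 groups of 4 checked, and chance flags about 1 in 20.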

How the results depend on the processing

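Of 6 members, 2 were called with differentiation in control cells and 3 in tKO cells. All were higher in DM3, as were 15.9% and 11.4% of all names. miR-344g-3p is in both counts and miR-344c-3p in the tKO count, and both pass the filter on low counts through tKO DM3. No rise of the family is therefore read from these counts. The count in control was 0 with no filter beyond 10 reads, 1 with exact mature sequences, 0 and 1 with replicate 1 or 2 alone, 1 with only the groups compared, and 0 to 3 with a library left out. In tKO it was 1, 0, 1 and 1 for exact mature sequences, replicate 1 alone, replicate 2 alone and only the groups compared. Exact mature sequences and replicate 1 alone left 3 members to test, as did only the groups compared in control, where miR-344-3p still passed. Names called in control were 223 of 807 tested, and 86 of 292 with exact mature sequences, 123 of 403 with hairpin match (132 with the block), 139 of 493 at 18 to 25 nt and 85 of 564 with replicate 1 alone. In tKO they were 159 of 807, and 89 of 292 with exact mature sequences, 74 of 1170 with replicate 2 alone and 82 of 689 with only the groups compared. For the difference of responses 1 name was called with 4 of the read choices and in 1 fit with a library left out (range 0 to 1). Between clones (11) there were 21 with no filter, 36 with DESeq2, 22 with exact mature sequences, 37 with hairpin match and block, 5 (without tKO GM clone 2 replicate 1) to 90 (without tKO DM3 clone 1 replicate 2) with a library left out, and 0 to 1 members.

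With the replicate block, counts of members were 2 and 3 and names called were 241 in control, 168 in tKO and 20 between clones; miR-344-3p was at 1.43 in control (adjusted p = 0.00628). The block changed the call of no member. Libraries with the same number in different groups correlated on average with r = 0.101 over 48 pairs, and with different numbers -0.095. Clones and populations were not compared on replicate 1 or 2 alone, where the model per line and medium has no residual degrees of freedom; a simpler model was not run.

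Log2 changes that were not called crossed 0 in some settings, and the cause was not tested. miR-344b-3p in control was 0.31 with total counts, 0.22 without mismatches, 0.58 with exact mature sequences, 0.44 with hairpin match (0.43 with the block), 0.40 at 18 to 25 nt, 0.02 with replicate 2 alone and 0.04 with only the groups compared; in tKO it was -0.30 with replicate 1 alone. miR-344d-3p in tKO was 0.15 with total counts, 0.05 without mismatches, 0.06 with exact mature sequences, 0.02 at 18 to 25 nt and 0.20 with replicate 2 alone. With no filter, miR-344d-3p was -0.01 and miR-344d-3-5p -0.09 in control; in tKO miR-344d-3-5p was -0.02, with the block -0.13 and with replicate 2 alone -0.07. The difference of responses was 0.07 for miR-344d-3-5p with no filter, -0.87 without mismatches and -1.05 at 18 to 25 nt for miR-344g-3p, -0.04 for miR-344b-3p with replicate 1 alone and 0.30 for miR-344-3p with replicate 2 alone. Between clones miR-344d-3-5p was -0.06 with total counts and miR-344-3p 0.13 with no filter. Between populations miR-344d-3p was -0.08 with total counts, -0.15 with exact mature sequences and -0.01 with hairpin match (-0.02 with the block), and miR-344-3p -0.01 with exact mature sequences. With a library left out the ranges were -0.72 to 0.13 (miR-344b-3p, control), -0.54 to 0.33 and -0.42 to 0.59 (miR-344d-3-5p, control and tKO), -0.31 to 0.15 (miR-344d-3p, tKO), -0.45 to 0.06, -0.54 to 0.62 and -0.45 to 0.77 (difference of responses of miR-344-3p, miR-344d-3-5p and miR-344g-3p), -0.24 to 0.30 and -0.13 to 4.57 (clones, miR-344-3p and miR-344d-3-5p), and -0.19 to 1.69 and -0.55 to 3.42 (populations, miR-344b-3p and miR-344d-3-5p).

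For the forms of miR-344d-3p in control, requiring 20 reads gave -3.56 (added base) and -0.221 (exact) percentage points. With a library left out they ran from -3.56 to 4.66 and -2.88 to 2.24, and in tKO from -1.36 to 5.07 and -4.49 to 1.59. The log2 ratio of miR-344b-3p to miR-344d-3p in control was 0.23 and 0.26 with exact and hairpin-matched reads, and -0.63 to 0.27 with a library left out. The genotype differences in GM ran over the alternatives from 2.53 to 2.97 for miR-344d-3p, 1.71 to 3.10 for miR-344b-3p, 0.58 to 1.61 for miR-344-3p, 1.77 to 2.77 for miR-344d-3-5p, 1.17 to 2.68 for miR-344g-3p and 0.67 to 1.14 for miR-344c-3p. Depth limits miR-344c-3p and miR-344g-3p, which had 0 to 7 and 0 to 11 reads in control GM libraries.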
